A study of Homo sapiens with 18 samples.

Results

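Pseudogenes other than those of ribosomal protein genes and of mitochondrial DNA held peaks of RNA crosslinked to MYC in 89 cases, out of 1466 annotated genes that held a peak of any of 3 MYC alleles. A pseudogene was counted when it was the shortest annotated gene holding the summit of a peak, and symbols that begin with RPL, RPS, MTATP, MTND, MTCO or MTRNR were left out. The pseudogenes were thus chosen by the measured summits of the same peak lists, so their fold enrichments, −log10 q values, widths and positions are given as a description, with no test. The series mapped RNA bound by FLAG-tagged MYC with enhanced crosslinking and immunoprecipitation (eCLIP), which fixes proteins to RNA with ultraviolet light and sequences the RNA recovered with the precipitated protein. It used the human osteosarcoma line U2OS with the endogenous MYC knocked out and a MYC transgene under a Tet-On system. The alleles were MYC-3A, MYC-7A and wild-type MYC. For each allele, cells were kept for 24 h with doxycycline (1 µg/mL) or with phosphate-buffered saline instead, and each treatment gave 2 immunoprecipitated libraries and 1 input. The altered residues of the mutants, and whether a line is a single clone, are not stated in the labels. Only peak lists of cells with doxycycline were analysed, 1 per allele, so no value below has a replicate, and a background from uninduced cells was not analysed here. Sequencing depth is unknown.

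Most pseudogenes of this kind are processed pseudogenes, copies of a messenger RNA that were reverse transcribed and put back into the genome without introns. They arise mainly from genes with abundant messages, such as those of glycolysis, the cytoskeleton, chaperones and translation, and they carry the name of the parent gene followed by P and a number. Many are not known to be transcribed. Since a copy resembles its parent, a short read from the parent's message can also match the copy, and the gene of origin of a read placed there is uncertain. How much of each peak below came from reads of the parent or of another copy was not tested.

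The 3A list had 1 of 103 peaks in these pseudogenes (0.971%, exact 95% binomial interval 0.0246 to 5.29) and the 7A list had 2 of 88 (2.27%, 0.276 to 7.97), while the wild-type list had 99 of 2149 (4.61%, 3.76 to 5.58). These intervals cover counting error over peaks only. By gene, 1 pseudogene held a 3A peak, 2 held a 7A peak and 87 held a wild-type peak. Over all 14615 annotated pseudogenes outside the left-out names, these are 0.00684% with a 3A peak, 0.0137% with a 7A peak and 0.595% with a wild-type peak, and since the peaks set the membership, nothing further is read from these shares. The lists differ greatly in length, and the difference between alleles in the share was not tested. Of the 89 pseudogenes, 82 have the plain pseudogene type in the annotation and 7 are annotated as transcribed: ANXA2P2, CCDC144BP, DDX12P, SLC7A5P2, STAG3L3, TARDBPP3 and YBX3P1. They lay on 23 chromosomes, with 10 on chromosome 1, 8 on chromosome 5 and 7 on chromosome 9. In the wild-type list, 78 pseudogenes had 1 peak, 6 had 2 and 3 had 3, the last being ENO1P1, HSP90AA2P and HSP90AB3P.

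For 73 of the 89 pseudogenes the symbol without its final P and number is that of a protein-coding gene, which gave 63 parents. The other 16 had no such parent. The 73 pseudogenes had a median length of 1314 bp, and 72 of them were shorter than the genomic span of the parent, which was 9.59 times as long in the median. Of the 63 parents, 40 belong to 10 lists of genes with abundant messages that were written by hand from general knowledge, with earlier results of these data known. Those 40 parents account for 49 of the pseudogenes. Over all 6208 annotated pseudogenes that name a coding parent, 73 held a peak of any allele (1.18%). The shares of copies given below for each list are to be read beside that 1.18%, and none was tested against it. The 1.18% covers parents with and without a peak. Where the parent had a wild-type peak, 3.75% of 1575 pseudogenes held one, and where it had none, 0.259% of 4633. Lists with many peak-holding parents are to be read beside the 3.75% as well. The list shares count copies of listed genes only and are not totals of a class. For example, ATP5F1EP2 (7.61) and HNRNPRP1 (12.4) had wild-type peaks, and their parents ATP5F1E and HNRNPR are on no list. The same holds for TARDBPP3, YBX3P1 and SERBP1P5.

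Copies of cytoskeletal genes included the wild-type peak with the highest fold enrichment of the 99. It lay in TUBBP1, a copy of the beta-tubulin gene TUBB, on chromosome 8 from 30352021 to 30352150 on the plus strand. Its fold enrichment was 29.7, its −log10 q was 196, and it ranked 14 by fold enrichment among all 2149 wild-type peaks. TUBBP1 had another peak of 8.52, and the summits of both lay 235 and 431 bp from the start of the copy. TUBBP6, another copy of TUBB, had a peak of 21.9 on chromosome 7 from 55645743 to 55645877. The parent TUBB had no wild-type peak, so in this family the peaks of the list lay in copies. Among related beta-tubulin genes, TUBB6 had 3 wild-type peaks with fold enrichments from 5.84 to 8.39, TUBB4B had 1 of 3.64, and TUBB2A, TUBB2B, TUBB3 and TUBB4A had none. TUBAP2 names no single parent by its symbol and had a peak of 11.1. Of the alpha-tubulin genes looked up, TUBA1B had 4 wild-type peaks, TUBA1C had 2 and TUBA1A had none.

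Beta-actin copies were ACTBP2 and ACTBP11. ACTBP2 had wild-type fold enrichments of 10.1 and 3.95, the first with a −log10 q of 92.1. ACTBP11 had a single wild-type peak of 8.05. The parent ACTB, which encodes the main cytoplasmic actin, had 6 wild-type peaks with fold enrichments of 1.86 to 4.95, all below the highest in each copy, 3 of them above the lower ACTBP2 peak, and with −log10 q values of up to 117. CFL1P2, a copy of the gene of the actin-severing protein cofilin, had a peak of 4.61, below the highest of 3 peaks in CFL1 (12.8). Of 242 annotated copies of the cytoskeletal list, 5 held a peak (2.07%), which belonged to 3 parents, 2 of them with a wild-type peak of their own.

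Glycolysis was represented by 8 copies out of 105 annotated (7.62%, beside 1.18% over all), from 6 parents that all had wild-type peaks themselves. The 1.18% includes copies of parents without a peak. Of the 10 glycolysis genes with a copy, 8 had a wild-type peak. Over all pseudogenes whose parent had one, 3.75% held a wild-type peak. The wild-type fold enrichments of their 10 peaks had a median of 11.3 and ran from 5.98 to 18.8. LDHAP5 (18.8) and LDHAP4 (9.70) are copies of the gene of lactate dehydrogenase A, whose own 3 peaks reached 14.1. LDHBP2 (16.1), on chromosome X from 76335650 to 76335867, is a copy of the gene of lactate dehydrogenase B, which had 6 peaks of up to 40.8. ENO1P1, a copy of the enolase gene, had peaks of 14.3, 13.9 and 8.15 along its 1808 bp, against 9 peaks in ENO1 of up to 26.8. Copies of the triose phosphate isomerase gene and of the pyruvate kinase gene followed with TPI1P1 (11.8, parent 16.6) and PKMP5 (10.9, parent 16.0). GAPDHP65 (6.55) and GAPDHP70 (5.98) were 2 of 65 annotated copies of GAPDH, whose highest peak had 9.02.

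Chaperones and folding enzymes had 8 copies with a peak among 195 (4.10%). All 7 parents had wild-type peaks, and the 11 peaks in the copies had a median fold enrichment of 10.00. Of the 19 listed genes with a copy, 16 had a wild-type peak. The 4.10% is near the 3.75% over all pseudogenes whose parent had one. CCT8P1 (16.3 and 9.06) and CCT5P2 (7.75) come from genes of subunits of the cytosolic chaperonin, where CCT8 reached 12.6 and CCT5 19.7. HSPD1P4 (14.5) and HSPD1P1 (9.96) are copies of the mitochondrial chaperonin gene HSPD1 (27.1). STIP1P3, a copy of the gene of a cochaperone that joins HSP70 to HSP90, had peaks of 15.0 and 9.70, both above the highest peak of STIP1 (6.62). FKBP4P6 (14.1) copies FKBP4 (18.2), which encodes an HSP90-binding prolyl isomerase. PPIAP22 had peaks of 13.1 and 10.00, with −log10 q values of 36.3 and 59.8, while PPIA, the cyclophilin A gene with 87 annotated copies, had a highest fold enrichment of 3.49 and a highest −log10 q of 10.9. That ratio of 3.74 between copy and parent was the highest among the 50 families in which both had a wild-type peak.

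By their symbols HSP90AA2P and HSP90AB3P belong to the cytosolic HSP90 family, and neither names a coding gene by the rule used here. HSP90AA2P had 3 wild-type peaks with fold enrichments of 12.02, 10.6 and 8.18, and the gene HSP90AA1 had 1 of 10.2. HSP90AB3P had 3 with 8.07, 6.28 and 6.198, and HSP90AB1 had 8 from 4.81 to 19.2.

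RNA-binding proteins had 7 copies with a peak among 249 (2.81%), from 6 parents of which 4 had a wild-type peak. Of the 31 listed genes with a copy, 19 had a wild-type peak. HNRNPKP4 led the copies with 14.6, above the single peak of HNRNPK (9.92), a gene of a poly(C)-binding protein. SNRPD2P1 (12.3, parent 7.94) and SNRPEP4 (11.8) copy genes of core proteins of the spliceosomal particles, and SNRPE itself had no wild-type peak. YBX1P10 (9.00) and YBX1P1 (3.84) copy the gene of a cold-shock domain protein that binds messenger RNA, YBX1, whose 3 peaks reached 8.68. NPM1P27 (4.69) was 1 of 50 annotated copies of the nucleophosmin gene NPM1, which had 6 peaks of up to 8.10. NONOP1 had 4.76 and NONO, a paraspeckle protein gene, had none.

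Chromatin and nuclear transport genes had 5 copies with a peak among 262 (1.91%). HMGB1P5, on chromosome 3 from 22381739 to 22381849, had the fold enrichment next in rank to that of TUBBP1, 25.1 with a −log10 q of 59.3. It was 1 of 50 annotated copies of HMGB1, a gene of a DNA-bending chromatin protein, and HMGB1 had no wild-type peak. RANP6 (14.2) copies RAN, the GTPase gene of nuclear transport (27.9), and RANBP1P1 (12.5 and 11.1) copies RANBP1, the gene of a RAN-binding protein (19.5). PTMAP2 (5.86) and PTMAP5 (3.01) copy the prothymosin alpha gene PTMA (14.7). The PTMAP5 value was the lowest fold enrichment of the 99 peaks.

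Metabolic enzymes had 4 copies with a peak among 105 (3.81%), and all 4 parents had wild-type peaks. Of the 25 listed genes with a copy, 12 had a wild-type peak. The 3.81% is near the 3.75% over all pseudogenes whose parent had one. PAICSP4, a copy of a gene of purine synthesis, had 18.2 and PAICS reached 16.9. PRDX1P1, a copy of a peroxiredoxin gene, had 17.3 and PRDX1 reached 9.43. SCDP1 (13.1) copies the fatty acid desaturase gene SCD (26.9), and NME2P1 (7.84) copies the nucleoside diphosphate kinase gene NME2 (17.6). Genes of mitochondrial respiration and transport had 7 copies with a peak among 260 (2.69%), again with peaks in all 5 parents. Of the 36 listed genes with a copy, 25 had a wild-type peak, and 2.69% is below that 3.75%. CYCSP55, 1 of 45 annotated copies of the cytochrome c gene, had 14.1 against 18.1 in CYCS. CHCHD2P9 (14.1) and CHCHD2P6 (5.998) stood beside CHCHD2 (19.2), and SLC25A5P3 (12.9) and SLC25A5P1 (10.6) stood above SLC25A5 (6.56), a gene of the ADP/ATP carrier. ATP5F1AP3 (11.2, parent 12.9) and VDAC2P5 (10.9, parent 8.13) copy genes of ATP synthase and of an outer membrane channel.

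Translation factors had 3 copies with a peak among 215 (1.40%): EIF4A1P10 (11.3), EIF4HP1 (10.97) and EIF5AP2 (7.51). EIF4A1, an RNA helicase of initiation, reached 9.96, EIF5A reached 17.7, and EIF4H had no wild-type peak. The list of signalling, iron storage and vesicle genes had 2 copies with a peak among 144 (1.39%), RAC1P2 in the wild-type list (11.8) and ANXA2P2 in the 7A list. Both shares are near the 1.18% over all pseudogenes that name a coding parent. No peak lay in any of 96 copies of the list of ubiquitin and proteasome genes. That allows a share of up to 3.125%, above the 1.18% over all. The list lacks PSMA2, UBE2S and NEDD8, whose copies PSMA2P3 (6.81), UBE2SP2 (8.70) and NEDD8P1 (10.1) each had a wild-type peak. Of the 12 parents with the most annotated copies, 7 had no copy with a wild-type peak, among them HNRNPA1 with 75 copies, KRT18 with 68 and EEF1A1 with 50. HNRNPA1 and EEF1A1 had 2 wild-type peaks each of their own, and KRT18 had none. Over all 6208 pseudogenes that name a coding parent, 1.14% held a wild-type peak. The share was 3.75% where the parent had a wild-type peak and 0.259% where it had none. For HNRNPA1 and EEF1A1 the 3.75% is the nearer comparison. No expected count was worked out for the 7 families, singly or together, and nothing is read from their being without a peak.

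**Figure D1:**
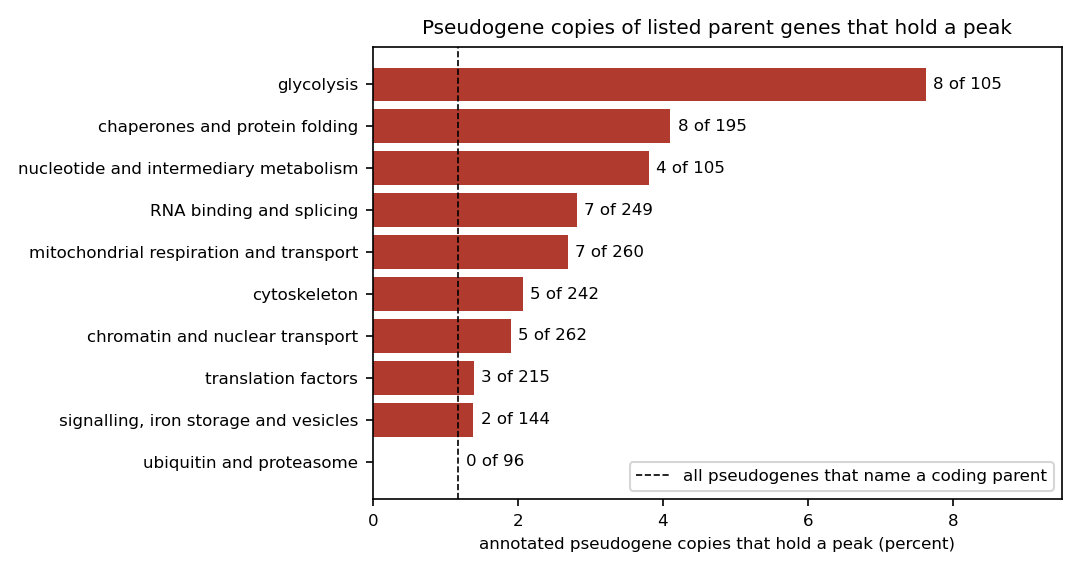
Percent of annotated pseudogene copies that hold a peak of any allele (horizontal axis), for 10 lists of parent genes, with the number of copies written beside each bar and a dashed line at the 1.18% over all pseudogenes that name a coding parent. Copies of listed glycolysis genes stand at 7.62%. Copies of listed translation factor genes (1.40%) and of the signalling list (1.39%) stand near the line. Copies of the listed ubiquitin and proteasome genes (0 of 96) stand below it. The line covers copies of parents with and without a peak of their own. Where the parent had a wild-type peak, 3.75% of pseudogenes held one.

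Outside the lists, GCSHP5 had 18.8 and copies the gene of the H protein of the glycine cleavage system, GCSH (13.0). SLC7A5P1 (14.3) and SLC7A5P2 (7.43) are both annotated copies of SLC7A5, a gene of a large neutral amino acid transporter that had 6 peaks of up to 16.4. Their peaks were wide, at 403 and 362 bp. PRMT1P1 (14.4, parent 16.4) copies an arginine methyltransferase gene. PES1P2 (13.5, parent 10.3) copies a gene of ribosome assembly. The 16 pseudogenes with no parent by symbol included 5 with LOC symbols. Of these, LOC100130394 had the third highest fold enrichment, 22.2, on chromosome 5 from 172656605 to 172656722. Coding genes with related names were looked up for others of the 16. STAG3, RBM8A, VOPP1, DDX11 and MT1X had no wild-type peak, and CCT6A and MT2A had 1 each.

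Parents of these pseudogenes often had wild-type peaks as well. Of the 63 parents, 50 did (79.4%, exact 95% binomial interval 67.3 to 88.5), against 6.02% of all 20050 protein-coding genes and 16.8% of the 2180 protein-coding genes that name at least 1 pseudogene outside the left-out names. Read the other way, a wild-type peak lay in 3.75% of the 1575 pseudogenes whose parent had one, and in 0.259% of the 4633 whose parent had none. These shares come from the same list as the membership and carry no test. The 13 parents without a wild-type peak were ANXA2, DNAJC19, EIF4H, ENSA, H2AZ2, HMGB1, LYPLA1, NONO, PHF2, PSMA2, RAC1, SNRPE and TUBB, and they have 14 of the pseudogenes. All 131 wild-type peaks in parents of known strand lay on the strand of the parent.

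Where both had a wild-type peak, the highest fold enrichment was in the copy in 23 of 50 families and in the parent in 27. The ratio of copy to parent ran from 0.240 for DYNLL1P3 over DYNLL1, a dynein light chain gene, to 3.74 for PPIAP22, with a median of 0.869. By −log10 q the copy was ahead in 11 of 50. The parent had more wild-type peaks than its copies together in 32 of the 50. Of 596 annotated copies of the 63 parents, 73 held a peak, a share set in part by the choice of parents, each of which has at least 1 such copy. Of the parents, 10 had more than 1. The median length was 1314 bp for the 73 and 930 bp for the 523 copies of the same parents with no peak. Since a summit had to lie inside the copy, the rule itself favours longer copies, and the difference was not tested.

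**Figure D2:**
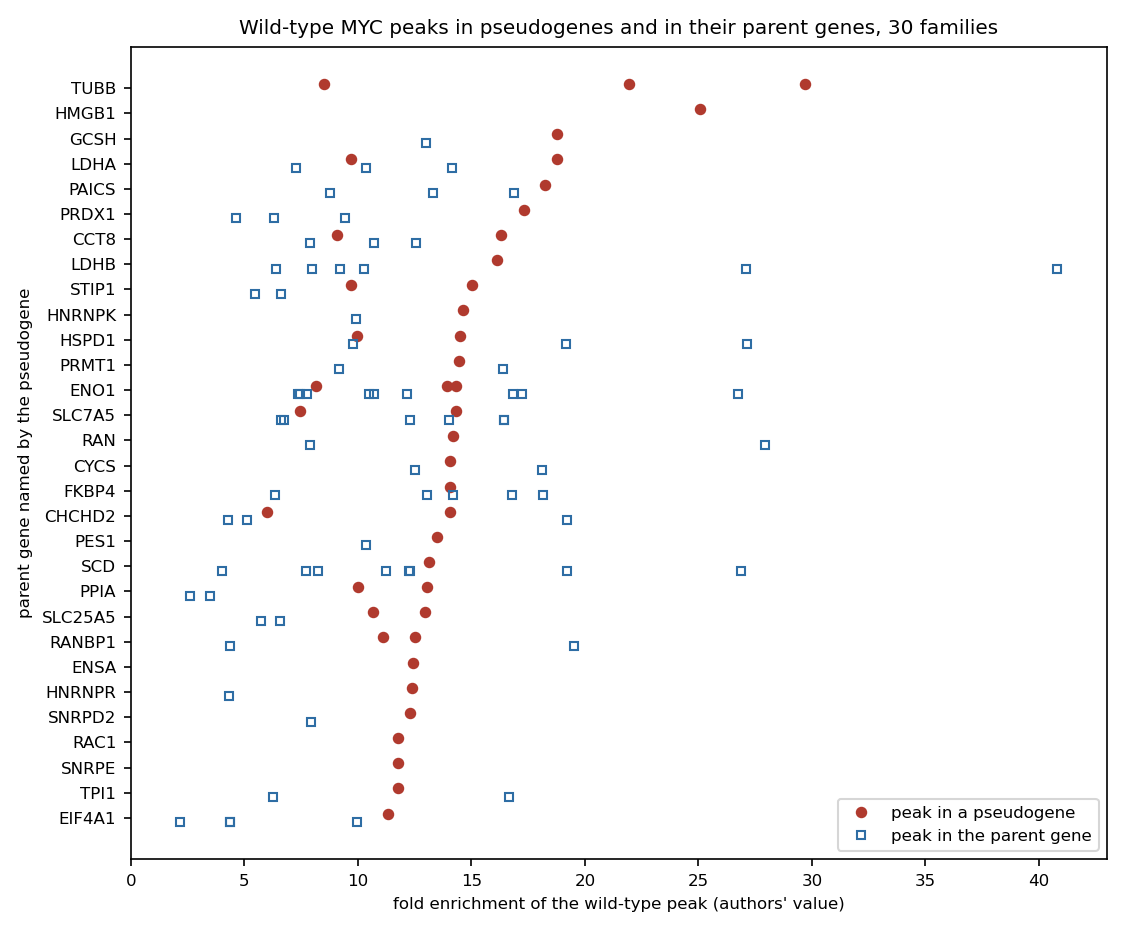
Fold enrichment of each wild-type peak, as the authors gave it (horizontal axis), in pseudogenes (filled circles) and in the parent gene (open squares), for the 30 families with the highest peak in a copy. TUBB, HMGB1, ENSA, RAC1 and SNRPE have circles and no square, and LDHB has the highest square, at 40.8.

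Summits lay toward the start of the pseudogene, taken as the end at which the strand of the peak begins, since the annotation gives no strand for these genes. Of 99 wild-type summits, 70 were within 500 bp of it (70.7%, exact 95% binomial interval 60.7 to 79.4) and 47 within 250 bp. Most of the pseudogenes are short, with a median length of 1412 bp, so position was also taken as a share of the length. Of the 89, 83 had at most 3000 bp, and the lengths ran from 177 to 87818 bp. Dividing each pseudogene into 5 equal parts from the start, the parts held 41, 24, 20, 11 and 3 summits. The last part held those of CCT6P2, DDX12P and PES1P2, named after their positions were seen.

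**Figure D3:**
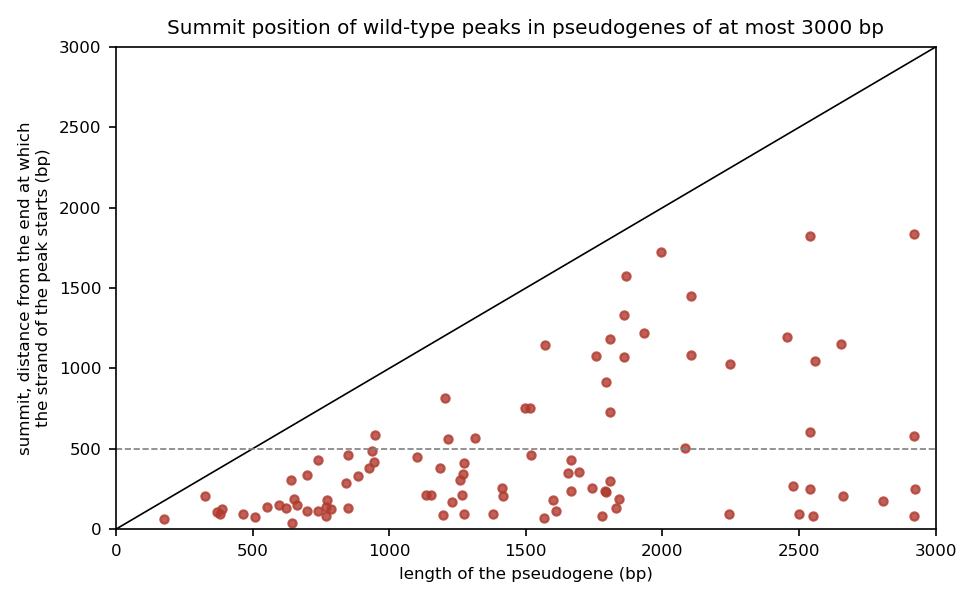
Distance of the wild-type summit from the start of the pseudogene (vertical axis, bp) against the length of the pseudogene (horizontal axis, bp), for pseudogenes of at most 3000 bp. The solid line marks the far end of the pseudogene and the dashed line 500 bp, and the points lie mostly below the dashed line.

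A minority of the copies that could be compared carried the peak at nearly the same distance from the start as the parent. A comparison was possible for 30 pseudogenes of 25 parents that had a summit within 500 bp downstream of the annotated start. The summit nearest the start lay 71 to 1221 bp from it in the copies and 30 to 494 bp in the parents, and since only the parents were limited to 500 bp, the 2 ranges are not compared. In 10 of the 30 copies it was within 100 bp of the parent's distance, and in the rest the distances differed by more. The copy's summit was the farther one in 24 of the 30, with medians of 301.5 bp in copies and 108 bp in parents. The limit on parents alone bears on that count too. What share would lie within 100 bp without any relation was not worked out. Distances are along the genome and may include introns, since exons were not used here. CYCSP55 had its summit at 71 bp and CYCS at 98 bp. SLC7A5P2 was at 81 bp and SLC7A5P1 at 129 bp, with SLC7A5 at 99 bp. ATP5F1EP2 was at 105 bp and ATP5F1E, a gene of ATP synthase, at 75 bp, and ERHP1 was at 135 bp and ERH at 63 bp. Among those far apart were SCDP1, at 1153 bp against 30 bp in SCD, and CCT8P1, at 1068 bp against 82 bp in CCT8. SERBP1P5 was at 1221 bp against 262 bp in SERBP1, and YBX3P1 at 1078 bp against 336 bp in YBX3.

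Sequences of the pseudogenes were not used here, so the start of the transcript is shown for parents whose wild-type peak covered at least 20 of the first 30 bases, which are CYCS, ENO1, ERH and SCD. Capitals mark the bases inside the peak, the letters run 5′ to 3′ from the annotated start, and they are RefSeq's for GRCh38.p14.
CYCS, chr7:25125231-25125260, minus strand: agagagtggGGACGTCCGGCTTCGGAGCGG
ENO1, chr1:8878657-8878686, minus strand: agtatctgTGGGTACCCGGAGCACGGAGAT
ERH, chr14:69398270-69398299, minus strand: gttgtagTTAAGCTCGTGTAACGGCGGCGG
SCD, chr10:100347233-100347262, plus strand: AGTCAACTCCTCGCACTTTGCCCCTGCTTG
The SCD peak, from 100347173 to 100347553, began upstream of the annotated start and lay over all 30 bases. The other 3 peaks began 7 to 9 bases downstream of the start. In all, 11 parents had a wild-type peak over some of their first 30 bases. The median GC content of those 11 windows was 70.0%, with a range of 56.7% to 86.7%. The median was 60.0% for the first 30 bases of all 27305 genes in the table. Of the sequences shown, ENO1, ERH and SCD were below that, at 56.7% each, and CYCS was at 70.0%.

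Of the 89 pseudogenes, 61 lay in no other gene, 19 in a longer protein-coding gene, 8 in a longer long non-coding RNA gene and 1 in a longer pseudogene. Wholly inside a protein-coding gene were 21.3% of the 89, compared with 32.3% of the 523 copies of the same parents with no peak and 30.1% of all 14615. Of the 19, the peak was on the strand opposite to the surrounding coding gene in 11 and on the same strand in 5. CCT8P1 lay in 2 coding genes of opposite strands, and for 2 the strand was not given. Peaks opposite to the surrounding gene included those of GCSHP5 in DCAF6, EIF4A1P10 in PCDH11X and HSPD1P1 in CDH12. On the same strand were ENO1P1 in EDARADD, EIF5AP2 in C17orf99, ERHP1 in CLEC2L, PSMA2P3 in KIAA2012 and LOC729998 in CHCHD3. None of the 20 surrounding coding genes had a wild-type peak assigned to itself. Over all 20050 protein-coding genes the share with one is 6.02%, so nothing is read from its absence among 20.

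Wild-type peaks in the pseudogenes were narrow, with a median width of 123 bp against 166.5 bp for the other 2050 wild-type peaks. At most 150 bp wide were 72.7% of them, against 41.2% of the other peaks and 42.6% of the 148 peaks in their parents. The 58 wild-type peaks in ribosomal protein pseudogenes were of similar width, with a median of 118.5 bp. Fold enrichment had a median of 10.1 in the pseudogenes and 8.07 in the other peaks, and the interquartile ranges were 7.54 to 13.0 and 5.73 to 11.4. In parents the median was 8.45, and in ribosomal protein pseudogenes it was 7.78. The medians of −log10 q were 20.5 in the pseudogenes, 17.8 in the other peaks, 28.7 in the parents and 25.6 in ribosomal protein pseudogenes. The lowest −log10 q of the 99 was 2.29, at VOPP2P, near the lowest of the list (2.04). Both strands were used, with 52 peaks on the plus strand and 47 on the minus strand.

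**Figure D4:**
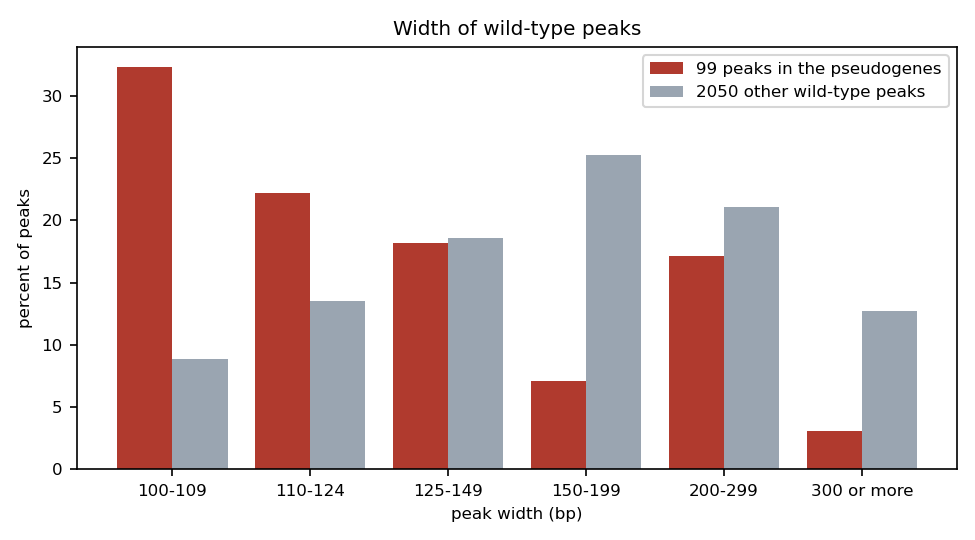
Percent of peaks (vertical axis) by peak width in bp (horizontal axis), for 99 wild-type peaks in the pseudogenes and the 2050 other wild-type peaks. In the narrowest class, 100 to 109 bp, are 32.3% of the peaks in pseudogenes and 8.88% of the others.

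The mutant alleles had 3 peaks in these pseudogenes. The 3A peak lay in ACTBP11 on chromosome 1 from 223864648 to 223864748, at 11.6 in fold enrichment and 45.7 in −log10 q within its list, and it met the wild-type peak that starts at the same base and ends at 223864872. The parent ACTB had 2 peaks in the 3A list, 1 in 7A and 6 in wild type. The 7A peaks lay in PHF2P1 on chromosome 13 from 19051652 to 19051938 (fold enrichment 7.66) and in ANXA2P2 on chromosome 9 from 33625103 to 33625322 (4.95), and neither met a wild-type peak. PHF2, a histone demethylase gene of the PHD finger family, had no peak in any list. ANXA2, which encodes the membrane-binding protein annexin A2, had 1 peak in each mutant list, with fold enrichments of 4.53 in 3A and 4.35 in 7A within their own lists, and no wild-type peak. The summits in ANXA2 lay 50517 bp (3A) and 50514 bp (7A) from its start, in a gene spanning 50836 bp, and the summit in ANXA2P2 was also in the later part, at 72.5% of its length.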

How the data were processed

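The data used are 3 deposited peak lists, 1 per MYC allele with doxycycline, out of a series of 18 libraries. The build was hg38 and the tools were cutadapt, BWA and MACS2, per the submitters' processing notes. How these were run, against which control, and with or without pooled replicates is not given in the sources used here, nor are versions. The deposited fold enrichment is a ratio over an unnamed control or background. The deposited −log10 q value measures confidence in a peak, and the summit is deposited as an offset from the peak start. All of these are the authors' values, used within 1 list. Depth is unknown.

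Coordinates were made 1-based. Hosts came from a RefSeq gene table of GRCh38.p14 (59716 placed genes), and strands and starts of coding genes from RefSeq's promoter sequences of that build. A parent is the protein-coding gene whose symbol is left when the final P and number are removed. Assignment of hosts was tested on simulated peaks. Intervals are exact binomial (Clopper-Pearson) at 95%. No test between groups was made: there is 1 list per allele, and the peaks chose the genes. Of 302 genes in 10 lists, 301 matched. Members and lists were chosen with earlier results of these data known. The genes named are those with a mutant peak, the hosts of the 20 peaks of highest fold enrichment, the 10 of highest −log10 q and the 5 of lowest fold enrichment, those with several peaks or a parent with several copies, and up to 6 per list. Other genes named were chosen after their values were seen. Alternatives were other host rules, stricter peaks, older symbols and other overlaps. Software was Python 3.11.15 with SciPy 1.17.1, NumPy 2.4.6, pandas 2.3.3 and matplotlib 3.10.9.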

Additional observations from a re-analysis of the deposited data

How the results depend on the processing

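Of 48 alternative values of 10 results, 36 stayed within 1.5 times the count or within the 95% interval of the share. With each list limited to peaks not below its median fold enrichment there were left, with fewer peaks by construction, 57 pseudogenes, 65 wild-type and 0 7A peaks in them, 0 mutant peaks that met a wild-type peak, 47 pseudogenes with a parent, 66.7% of parents with a wild-type peak, and 6.04% of wild-type peaks in the pseudogenes. Taking a protein-coding host first gave 3.58% of wild-type peaks, and by construction 0 pseudogenes inside a coding gene. Keeping ribosomal protein and mitochondrial pseudogenes gave 145 genes, 161 wild-type peaks and 4 3A peaks. No paired analysis was possible because the deposited lists, 1 per allele, hold no values of single replicates, and leaving out a replicate was likewise impossible. Depth is unknown, and 3 mutant peaks limit every comparison of alleles.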

Other observations

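Many peaks in the pseudogenes had a fold enrichment and a −log10 q identical, to all digits deposited, to those of another wild-type peak. This held for 55 of the 99 peaks in pseudogenes (55.6%) and for 861 of the 2050 other wild-type peaks (42.0%). GCSHP5 and LDHAP5, on different chromosomes, both had 18.8 and 33.3, CYCSP55 and FKBP4P6 both had 14.1 and 23.5, and LDHAP4 and STIP1P3 both had 9.70 and 13.0. What sets these shared values was not tested.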
